A study of Mus musculus with 16 samples.

Results

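The genes described here make fatty acids, build them into triglyceride and place the triglyceride in lipid droplets or lipoproteins in the liver, together with the transcription factors that control these steps. They are 38 genes, chosen by symbol from the 30199 genes of the deposited table, and all 38 were found once and reached the level needed to be tested, 10 normalized counts on average. The data are liver poly(A) RNA-seq from 16 female mice aged 5 months, fed a standard diet without restriction, 1 library each. Of these mice 4 were Ncoa5+/-Tip30+/-, heterozygous for a deletion of both genes, 4 were Ncoa5+/-, 4 Tip30+/- and 4 wild type, and livers with either deletion are called Ncoa5-deleted or Tip30-deleted below. Ncoa5 codes for a protein that binds nuclear receptors and modulates transcription, and Htatip2, known as Tip30, for a dehydrogenase-like protein studied as a tumour suppressor. Each library came from a piece of frozen whole liver, labelled as mainly hepatocytes, so fewer cells of a type and less RNA per cell cannot be told apart. The labels give neither the design of the deleted alleles nor a batch, and the sources used here do not name the mouse strain.

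In the liver, sugar is turned into acetyl-CoA and then, by acetyl-CoA carboxylase and fatty acid synthase, into palmitate, which is elongated, desaturated and esterified to glycerol. SREBP-1c (from Srebf1) turns these genes on in response to insulin, and ChREBP (from Mlxipl) in response to glucose and fructose metabolites. LXR-alpha (from Nr1h3) raises Srebf1, and PPAR-gamma (from Pparg) favours storage in droplets. Transcripts of this pathway follow feeding and the time of day closely.

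Libraries held 24740706 to 37939978 reads assigned to genes, and the deposited values are read counts divided by a size factor per library, called normalized counts below. Htatip2 averaged 977 ± 104 normalized counts in Ncoa5+/-Tip30+/- livers, 2467 ± 358 in Ncoa5+/-, 781 ± 139 in Tip30+/- and 2058 ± 179 in wild type (SD, n = 4 each), and no Tip30-deleted liver overlapped one without the deletion. Ncoa5 averaged 391 ± 23.5 in Ncoa5+/-Tip30+/- livers, 381 ± 35.1 in Ncoa5+/-, 408 ± 29.7 in Tip30+/- and 426 ± 42.1 in wild type, with no adjusted p below 0.527 against wild type for either Ncoa5 genotype, so the Ncoa5 genotype rests on the labels alone. The hepatocyte markers summed to 2110143 to 2746329.7 normalized counts in Ncoa5+/-Tip30+/- livers, 2212394 to 2958201 in Ncoa5+/-, 2750929 to 3258032 in Tip30+/- and 2208709.5 to 3301607 in wild type, so that every Ncoa5+/-Tip30+/- liver lay below every Tip30+/- liver. Of the 8 adipocyte markers, Adipoq, Lep, Retn and Plin1 stood at 0 to 11.6 in every liver. All 8 summed to 59.8 to 172 in Ncoa5+/-Tip30+/- livers, 12.7 to 63.1 in Ncoa5+/-, 44.2 to 129 in Tip30+/- and 33.7 to 79.9 in wild type. In 4 livers, Ncoa5+/- 1 and 4 and wild type 1 and 2, the repressor gene Zhx2 stood at 8.77 to 26.3 normalized counts, against 167 to 438 in the other 12. The mouse numbers in the sample titles, called tags here, whose order the labels do not explain, ran below 4300 in 9 livers (2 each of Ncoa5+/-Tip30+/-, Ncoa5+/- and wild type, 3 of Tip30+/-) and from 4300 upward in 7. The 2 wild-type livers low in Zhx2 are also the 2 of the lower tags. Zhx2 level and tag range therefore cannot be told apart in wild type. Differences from wild type within the lower tags are all against livers low in Zhx2.

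Per kilobase of exon, the most abundant transcript was Scd1, the desaturase that makes oleate, at 33831 normalized counts per kb averaged over the 16 livers, followed by Thrsp (16097), Khk (10277) and Dgat2 (8509). The least abundant were the droplet protein gene Plin4 (12.4) and the monoacylglycerol acyltransferase gene Mogat1 (29.3). The within-genotype SD of the log2 level had a median of 0.37 over the 38 members and of 0.26 over all tested genes, and 26 members lay above that value. Pnpla3 was the most variable, with an SD of 1.53 and a 52.3-fold range over the 16 livers. Thrsp (1.12), Elovl6 (1.04) and Fasn (1.01) came next. Dgat1 (0.12), Mttp (0.13), Nr1h3 (0.16) and Dgat2 (0.16) varied least. The SE of the log2 difference between Ncoa5+/-Tip30+/- and wild-type livers was accordingly 0.12 for Dgat2 and 0.69 for Fasn. Exons of 13 members share bases with a gene on the opposite strand, and no strand marking is stated, so reads of the 2 genes cannot be told apart there; the longest overlaps are those of Cideb with Nop9, Lipe with 4732471J01Rik, Mttp with Trmt10a, G6pdx with Ikbkg and Acss2 with Gss.

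**Figure D1:**
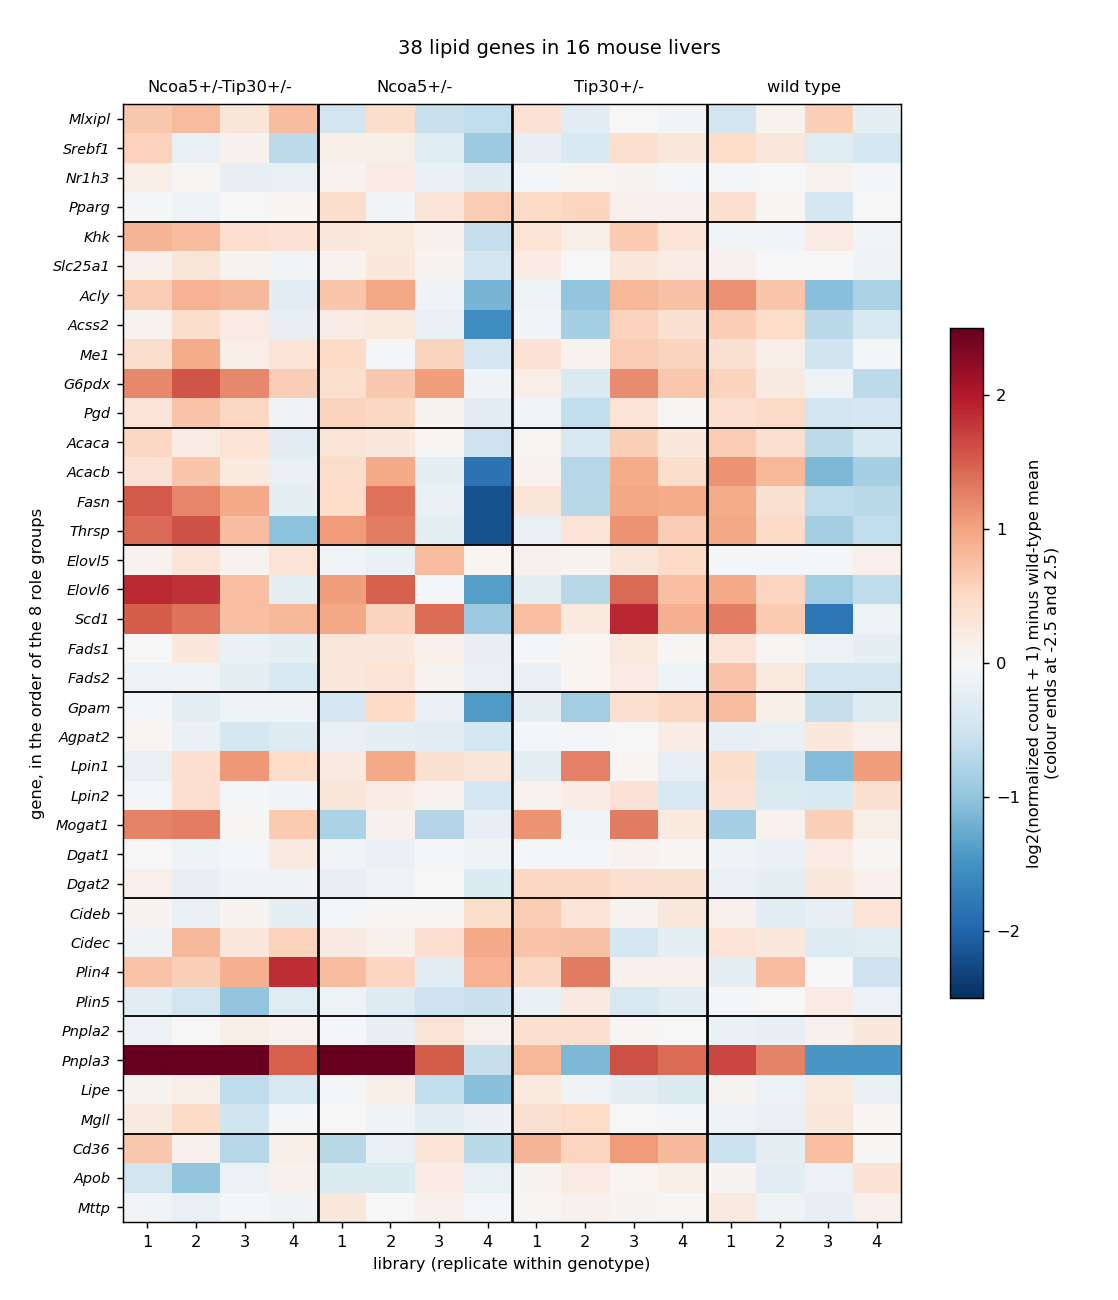
Level of the 38 genes (rows, in role groups divided by lines: regulators, supply of acetyl-CoA, NADPH and fructose carbon, fatty acid synthesis, elongation and desaturation, triglyceride synthesis, droplet proteins, lipolysis, uptake and export) in the 16 livers (columns), as log2(normalized count + 1) minus the wild-type mean. Fasn, Thrsp, Elovl6, Acacb and Pnpla3 differ between livers of 1 genotype, and Dgat2 is higher in all 4 Tip30+/- livers than in all other livers.

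Across the 8 comparisons, 1 of the 38 genes passed an adjusted p of 0.05 (limma, Benjamini-Hochberg over 15263 genes). It was Dgat2, lower in Ncoa5+/-Tip30+/- than in Tip30+/- livers and, over both Tip30 genotypes, in Ncoa5-deleted than in other livers. Against wild type it differed on the log2 scale by -0.07 in Ncoa5+/-Tip30+/-, -0.17 in Ncoa5+/- and 0.46 in Tip30+/- livers, and passed in none of these. In Ncoa5+/-Tip30+/- against wild-type livers 0 members passed, against 2.67% of all genes. At an unadjusted p below 0.05 there were 7, of which 6 were higher (Pnpla3, G6pdx, Khk, Plin4, Mlxipl and Mogat1) and 1 lower (Plin5), 18.4% of the members against 22% of all genes. DESeq2 on the recovered reads called 3 members (Khk, G6pdx and Pnpla3), 7.89% against 6.84% of all genes, while edgeR called 0 (and 2.4% of all genes). The median change was 0.12 on the log2 scale over the members and -0.01 over all genes, and 25 of 38 lay above 0 (29 under upper-quartile scaling), against 48.7% of all genes. Without the 4 livers low in Zhx2, which leaves 2 wild-type livers, the median over the members was 0.33, and 15 members reached an unadjusted p below 0.05 (12 higher and 3 lower), 39.5% against 17.2% of all genes. The wild-type livers left, wild type 3 and 4, both have higher tags, so this setting also changes the tags of the wild-type group. The median also moved by over 1.5 times without single livers, to 0.05 without Ncoa5+/-Tip30+/- 2, 0.19 without Ncoa5+/-Tip30+/- 3, 0.19 without wild type 1 and 0.07 without wild type 4.

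In Ncoa5+/- against wild-type livers 0 members passed (0.557% of all genes did), and 2, Agpat2 and Plin5, were lower at an unadjusted p below 0.05, or 5.26% against 3.85% of all genes lower. Without the 4 livers low in Zhx2, which leaves 2 livers of each, 9 members reached it (8 higher and 1 lower), 23.7% against 10.8% of all genes, and the median over the members was 0.31, against 0.01 with them. Of the livers left, both wild-type livers have higher tags, while Ncoa5+/- 2 has a lower and Ncoa5+/- 3 a higher tag. With 1 liver left out the number of members at an unadjusted p below 0.05 was 0 without Ncoa5+/- 3 or wild type 3, 1 without Ncoa5+/- 4 or wild type 4, 4 without wild type 1 and 5 without Ncoa5+/- 2. Shares over all genes are not given for these counts. Tip30+/- against wild-type livers gave 0 members (0.0131% of all genes), and 4 (Dgat2, Cd36, Cideb and Khk) were higher at an unadjusted p below 0.05, or 10.5% against 3.48% of all genes higher. In that comparison 33 of 38 members lay above 0, against 52.3% of all genes, with a median of 0.19 on the log2 scale, and under TMM scaling 29 did. The median was 0.12 with the mouse tag as a covariate, 0.11 without wild type 3 and 0.33 without the 4 livers low in Zhx2, where 7 members reached an unadjusted p below 0.05, all higher (18.4% against 5.37% of all genes in either direction). The wild-type livers left there both have higher tags, as only Tip30+/- 4 does among the Tip30+/- livers. The count of members at an unadjusted p below 0.05 was 2 without any one of Tip30+/- 1, 3 and 4 and wild type 2. Between Ncoa5+/-Tip30+/- and Ncoa5+/- livers 0 members passed (0.0197% of all genes), and 3 (Khk, Mlxipl and Mogat1) were higher at an unadjusted p below 0.05, or 7.89% against 4.25% of all genes higher. Neither DESeq2 nor edgeR called a member in these 3 comparisons. Between Ncoa5+/-Tip30+/- and Tip30+/- livers Dgat2 passed, 1 of 38 or 2.63%, against 3.07% of all genes. At an unadjusted p below 0.05 by limma, 3 members were higher and 5 lower there (share over all genes not given). The median change was 0.01 on the log2 scale over the members and -0.02 over all genes.

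Over both Tip30 genotypes, Ncoa5-deleted against other livers also gave Dgat2 alone, against 7.89% of all genes. At an unadjusted p below 0.05 by limma, 2 members were higher and 5 lower (share over all genes not given). The median change was -0.02 on the log2 scale over the members and -0.01 over all genes. Tip30-deleted against other livers, over both Ncoa5 genotypes, gave 0 members (0.131% of all genes). There 8 members (Khk, Mogat1, Dgat2, Mlxipl, Cd36, Me1, G6pdx and Plin4) were higher at an unadjusted p below 0.05 and 0 lower, 21.1% against 5.12% of all genes higher. Without the 4 livers low in Zhx2 there were 5, all higher, a count given here without the share over all genes. DESeq2 called Khk and Mogat1 in it, 5.26% against 1.61% of all genes, and edgeR called 0. The interaction of both deletions gave 0 members and 0% of all genes, and 4 members (Mlxipl, Pparg, Dgat2 and Cideb) at an unadjusted p below 0.05 (10.5% against 4.26%), with 0 by DESeq2 and by edgeR. Several of these comparisons share livers, so their counts are not independent.

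**Figure D2:**
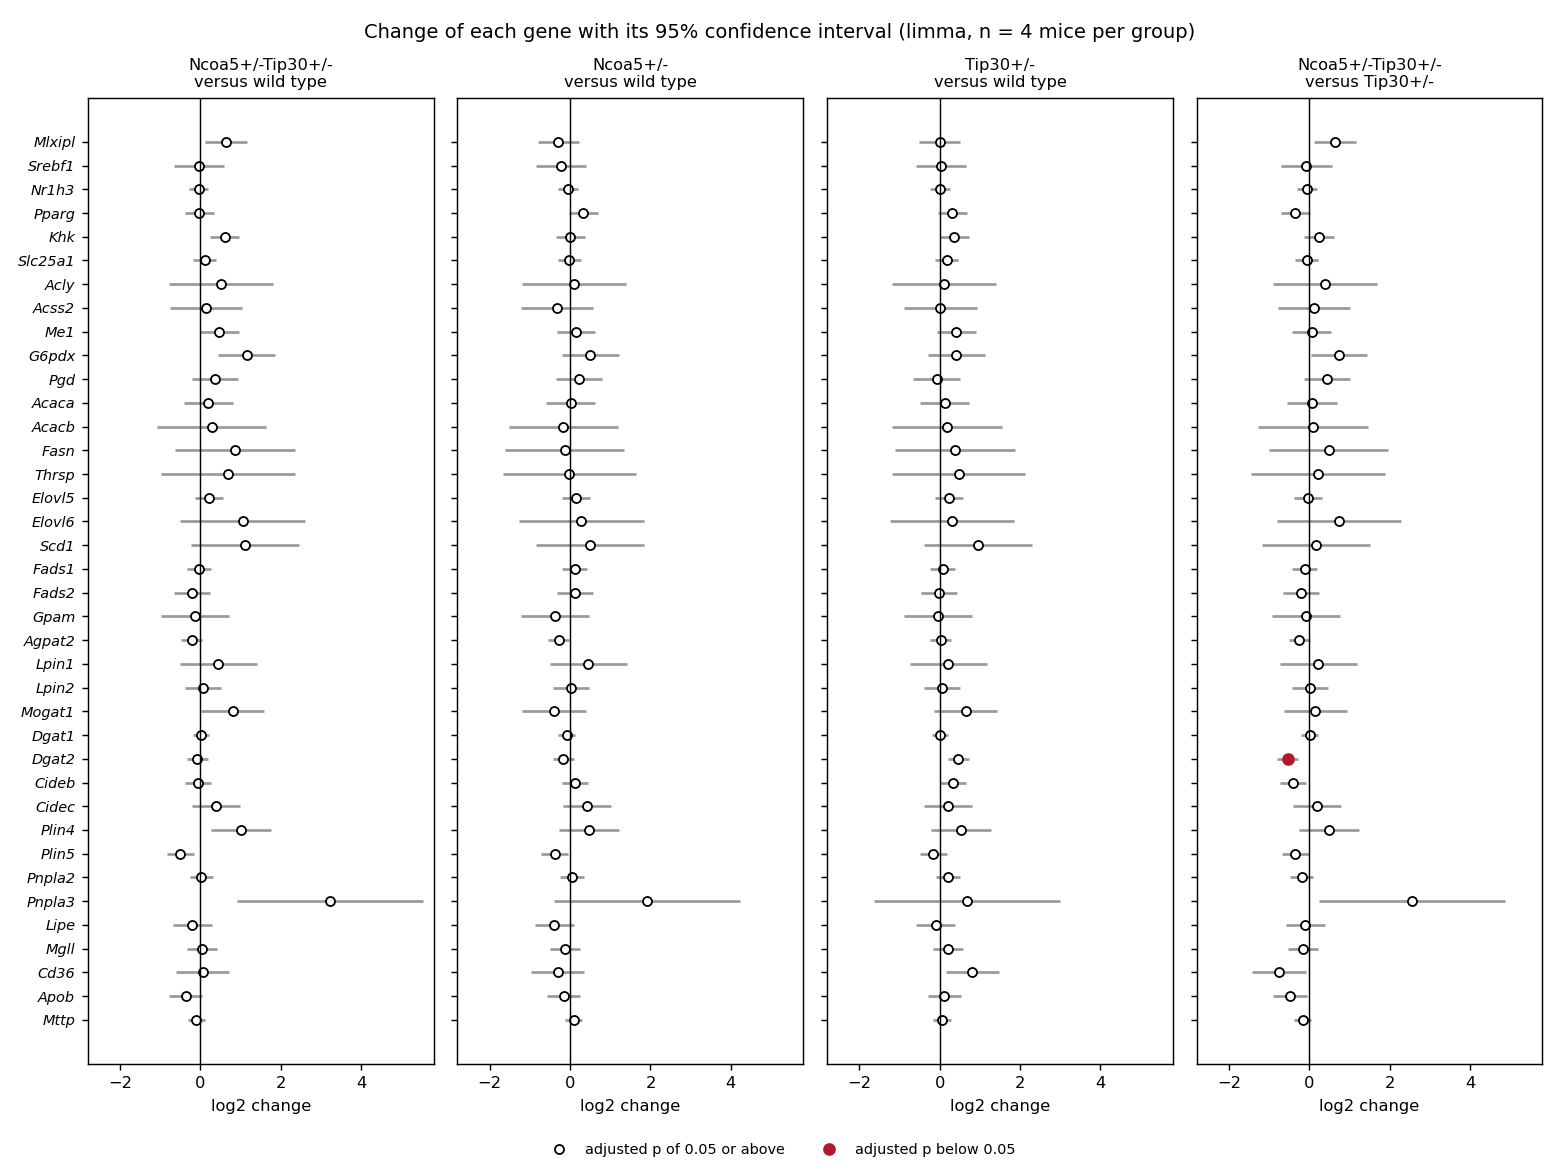
Change of the 38 genes on the log2 scale (x axis) with the 95% confidence interval of the limma fit in 4 comparisons (panels, n = 4 mice per group). The filled point, Dgat2 in Ncoa5+/-Tip30+/- versus Tip30+/- livers at -0.54, is the only one in these panels with an adjusted p below 0.05, and Pnpla3 has the widest intervals.

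Among the regulators, Mlxipl (ENSMUSG00000005373, GRCm38 chr5:135089890-135138382, plus strand), which encodes ChREBP, had 10007, 10846, 7669.7 and 10651 normalized counts in the 4 Ncoa5+/-Tip30+/- livers. It had 4555, 8509, 4248 and 4084 in Ncoa5+/-, 7973, 5164, 6189 and 5955 in Tip30+/- and 4518, 6603, 9437 and 5369.5 in wild-type livers. All but 1 of the Ncoa5+/-Tip30+/- livers lay above every liver of each other genotype. The log2 change was 0.64 ± 0.24 (SE) against wild type (95% confidence interval 0.12 to 1.15, adjusted p = 0.142), 0.93 ± 0.24 against Ncoa5+/- (adjusted p = 0.475) and 0.64 ± 0.24 against Tip30+/- (adjusted p = 0.135). A two-sided exact permutation test gave p = 0.0571 in each of these, where 0.0286 is the smallest that 70 arrangements allow. In Tip30+/- livers its difference from wild type was 0.00 and in Ncoa5+/- livers -0.29, and the interaction was 0.93 ± 0.34 (unadjusted p = 0.0154, adjusted p = 0.95). Within the lower tags the difference from wild type was 0.93 and within the higher tags 0.34. With the Ncoa5+/-Tip30+/- and Tip30+/- livers fitted alone, Mlxipl passed between them (adjusted p = 0.0408), and without wild type 3 it passed against wild type (adjusted p = 0.0465). Exons of Mlxipl share 235 bases with the antisense gene Gm43500, and no strand marking is stated.

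Srebf1 (ENSMUSG00000020538, chr11:60199089-60222581, minus strand), the gene of SREBP-1, had 40949.6, 24329, 29738 and 17479.7 normalized counts in Ncoa5+/-Tip30+/- livers, 30661, 30637, 22501 and 14744 in Ncoa5+/-, 23952, 21293, 36836 and 33689.9 in Tip30+/- and 37887, 33428, 22508 and 20351 in wild-type livers. The 4 genotypes overlapped throughout, and the log2 change against wild type was -0.04 ± 0.29 (95% confidence interval -0.67 to 0.59) in Ncoa5+/-Tip30+/- livers, -0.22 ± 0.29 in Ncoa5+/- and 0.03 ± 0.29 in Tip30+/-. Nr1h3 (ENSMUSG00000002108, chr2:91184061-91202834, minus strand), the gene of LXR-alpha, had 5548, 5020.0, 4279 and 4353 normalized counts in Ncoa5+/-Tip30+/- livers, 5263, 5651, 4326 and 3920.2 in Ncoa5+/-, 4808, 5088, 5154 and 4796 in Tip30+/- and 4805, 4881, 5222 and 4801 in wild-type livers. Its groups overlapped as well, and its log2 change against wild type was -0.05 in Ncoa5+/-Tip30+/- livers, -0.06 in Ncoa5+/- and 0.01 in Tip30+/-, with a 95% confidence interval for Ncoa5+/-Tip30+/- of -0.29 to 0.20. Pparg (ENSMUSG00000000440, chr6:115360951-115490399, plus strand) had 266, 248, 271 and 276 normalized counts in Ncoa5+/-Tip30+/- livers, 365, 257, 337 and 421 in Ncoa5+/-, 375, 396, 296 and 296 in Tip30+/- and 356, 277, 200.3 and 272 in wild-type livers. All 4 Ncoa5+/-Tip30+/- livers lay below all 4 Tip30+/- livers, where the log2 change was -0.35 ± 0.17 (adjusted p = 0.232). In that comparison 4 members had groups that did not overlap, all lower (Pparg, Dgat2, Cideb and Mttp), or 10.5% against 9.05% of all genes. The interaction of Pparg was -0.67 ± 0.24 (unadjusted p = 0.0125, adjusted p = 0.95).

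**Figure D3:**
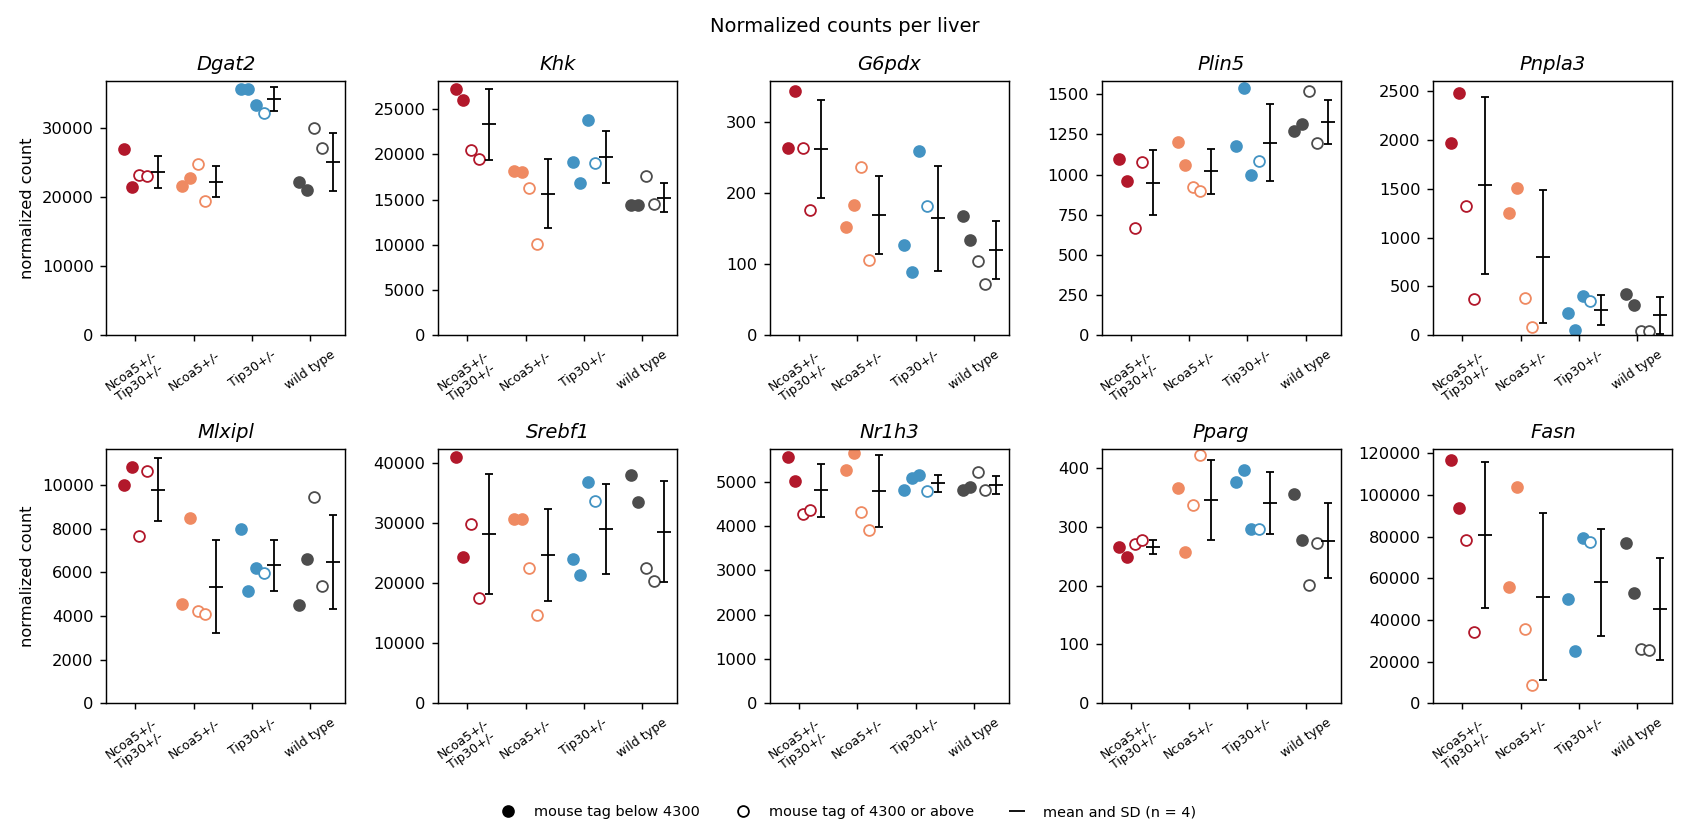
Normalized counts (y axis, from 0) of 10 genes in each of the 16 livers, by genotype, with the mean and SD (n = 4) beside the points and open symbols for mouse tags of 4300 or above. Tip30+/- livers hold the 4 highest Dgat2 values, the 4 Ncoa5+/-Tip30+/- livers lie above wild type for Khk and G6pdx and below it for Plin5, and Fasn and Pnpla3 spread widely within each genotype.

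The 7 genes that supply acetyl-CoA, NADPH and fructose carbon all lay above 0 in Ncoa5+/-Tip30+/- against wild-type livers, from 0.11 to 1.15 on the log2 scale with a median of 0.47, and 0 of 7 passed. Khk (ENSMUSG00000029162, chr5:30921431-30931248, plus strand) encodes ketohexokinase, which starts fructose breakdown. It had 27217, 26005, 20414 and 19521 normalized counts in Ncoa5+/-Tip30+/- livers, 18105, 18079.8, 16316 and 10108 in Ncoa5+/-, 19168, 16862, 23768 and 19036 in Tip30+/- and 14385, 14433, 17579 and 14484 in wild-type livers. Every Ncoa5+/-Tip30+/- liver lay above every wild-type and every Ncoa5+/- liver, and it averaged 23289 ± 3885 in Ncoa5+/-Tip30+/- and 15220.3 ± 1573 in wild-type livers (SD, n = 4 each). Its fold change was 1.52, on the log2 scale 0.60 ± 0.17 with a 95% confidence interval of 0.24 to 0.97 (adjusted p = 0.0679 by limma and p = 0.0286 by a two-sided exact permutation test). Any 4 livers that do not overlap 4 others give this exact p, which is unadjusted, here and for G6pdx, Plin5 and Dgat2 below. It therefore adds nothing to the non-overlap by which Khk, G6pdx and Plin5 were chosen. Against Ncoa5+/- the log2 change of Khk was 0.60 ± 0.17 (adjusted p = 0.475). Mttp did not overlap in that comparison either, and it was lower in Ncoa5+/-Tip30+/- livers (log2 -0.19). The share of all genes without overlap is not given for it. For Tip30-deleted against other livers Khk differed by 0.48 ± 0.12 (unadjusted p = 0.00109, adjusted p = 0.145). Khk passed against wild type with DESeq2 (adjusted p = 0.0135), with the mouse tag as a covariate (0.044), with upper-quartile scaling (0.0463) and without any of 3 livers, Ncoa5+/- 4, Ncoa5+/-Tip30+/- 4 or wild type 3 (0.0262 to 0.0484). Within the lower tags the difference from wild type was 0.88 and within the higher tags 0.32.

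G6pdx (ENSMUSG00000031400, chrX:74409483-74429194, minus strand) encodes glucose-6-phosphate dehydrogenase, the enzyme that opens the pentose phosphate pathway and makes NADPH. It had 264, 344, 264 and 176 normalized counts in Ncoa5+/-Tip30+/- livers, 152, 183, 237 and 106 in Ncoa5+/-, 128, 89.4, 259.6 and 182 in Tip30+/- and 168, 135, 105 and 72.2 in wild-type livers. It averaged 262 ± 68.6 in Ncoa5+/-Tip30+/- and 119.9 ± 40.8 in wild-type livers without overlap (SD, n = 4 each), a 2.22-fold difference (log2 1.15 ± 0.33, 95% confidence interval 0.45 to 1.85; adjusted p = 0.0699 by limma and p = 0.0286 by a two-sided exact permutation test). It passed with DESeq2 (adjusted p = 0.0134) and without Ncoa5+/-Tip30+/- 4 (0.0454). Within each range of tags both Ncoa5+/-Tip30+/- livers lay above both wild-type livers, and the difference within the higher tags was 1.30. Its exons share 418 bases with Ikbkg on the opposite strand, which had a larger mean count, and G6pdx has an intronless copy, G6pd2, so its level is uncertain. In this comparison 3 members, Khk, G6pdx and Plin5, had groups that did not overlap, 7.89% against 10.7% of all genes. The 8 adipocyte markers summed to 59.8 to 172 normalized counts in Ncoa5+/-Tip30+/- and 33.7 to 79.9 in wild-type livers. Of them Slc2a4, a glucose transporter gene, stood at 107, 117, 35.5 and 44.3 normalized counts in Ncoa5+/-Tip30+/- and 30.7, 29.4, 4.68 and 11.2 in wild-type livers, while Adrb3 stood at 16.7, 26.3, 70.2 and 10.3 in Ncoa5+/-Tip30+/- and 0, 2.1, 24.3 and 20.6 in wild-type livers. The range of Adipoq, Lep, Retn and Plin1 is given above, and Cfd and Cidea are given only within the sum.

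Of the other supply genes, Acly, ATP citrate lyase, differed by 0.51 ± 0.60 between Ncoa5+/-Tip30+/- and wild-type livers, and Me1, the NADPH-making malic enzyme, by 0.47 ± 0.23. Neither passed (adjusted p = 0.656 and 0.242). Pgd, Slc25a1 and Acss2 differed by 0.36, 0.11 and 0.13 on the log2 scale.

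The genes of fatty acid synthesis itself did not pass in any of the 8 comparisons with limma, DESeq2 or edgeR. Fasn (ENSMUSG00000025153, chr11:120805846-120824547, minus strand), fatty acid synthase, had 116696, 93956, 78262 and 34128 normalized counts in Ncoa5+/-Tip30+/- livers, 56059, 103811, 35566 and 8992 in Ncoa5+/-, 50218, 24995, 79269 and 77623 in Tip30+/- and 76754, 53012, 26048 and 25528 in wild-type livers. The genotypes overlapped, and the highest liver of each genotype was at least 3.01 times its lowest. The log2 change in Ncoa5+/-Tip30+/- against wild-type livers was 0.86 ± 0.69, with a 95% confidence interval of -0.63 to 2.35, so the sign of the difference was not settled at this spread. Thrsp, the Spot 14 gene that follows lipogenesis, differed by 0.69 ± 0.77, Acacb, the mitochondrial acetyl-CoA carboxylase, by 0.28 ± 0.63 and Acaca, the cytosolic form, by 0.20 ± 0.29. Among the genes of elongation and desaturation, the elongase gene Elovl6 differed by 1.05 ± 0.72 and Scd1 by 1.11 ± 0.62, while Elovl5, Fads1 and Fads2 differed by 0.21, -0.04 and -0.21. In Tip30+/- against wild-type livers Scd1 differed by 0.95 ± 0.62, and its lowest value among the 16 livers, 25873, was that of wild type 3.

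Much of the spread of these genes was shared by whole livers. The supply, synthesis, elongation and desaturation groups hold 16 genes, and in Ncoa5+/- 4 all 16 lay below their genotype mean, in Ncoa5+/-Tip30+/- 4, Tip30+/- 2, wild type 3 and wild type 4 15 of 16 did, and in Tip30+/- 3 all 16 lay above it. Of the livers with higher tags, 9 of 16 lay below it in Ncoa5+/-Tip30+/- 3, 7 in Ncoa5+/- 3 and 4 in Tip30+/- 4. Of those with lower tags, both Ncoa5+/-Tip30+/-, both Ncoa5+/- and both wild-type livers had 12 to 15 of 16 above it, whereas Tip30+/- 1 had 14 of 16 below it, so the Tip30+/- livers did not follow the order of the other 3 genotypes. Between livers with mouse tags of 4300 or above and livers with lower tags, in a comparison added after the spread was seen, 0 members passed, against 2.65% of all genes. At an unadjusted p below 0.05, 14 members were lower in the higher tags, 36.8% against 9.11% of all genes, and 3 were higher (share over all genes not given). All 4 genes of fatty acid synthesis were among the 14. Fasn ran from 8992 over a median of 34128 to 78262 normalized counts in the 7 livers of higher tags, and from 24995 over 76754 to 116696 in the 9 of lower tags, a log2 difference of -1.03 ± 0.43 (adjusted p = 0.22). Thrsp differed by -1.42 ± 0.41 (adjusted p = 0.0891), Elovl6 by -1.23 ± 0.41 (0.131) and Fads2 by -0.44 ± 0.11 (0.0501). Without Tip30+/- 4, the single Tip30+/- liver of the higher tags, 12 members passed, 11 of them lower, 31.6% against 6.6% of all genes, and without the 4 livers low in Zhx2 0 passed, against 0.0983% of all genes. At an unadjusted p below 0.05 there were then 7, 18.4% against 18.3% of all genes. In the same comparison 5 of 12 clock genes passed, among them Per3 (-0.93 ± 0.12, adjusted p = 0.00403) lower and Clock (0.55 ± 0.11, adjusted p = 0.0154) higher. Of 9 fasting genes 0 passed and 2 lay below 0, with a median of 0.20 on the log2 scale. The gluconeogenic G6pc stood at 1.19 ± 0.30 (adjusted p = 0.0569) and Pck1 at 0.84 ± 0.25 (0.0919), while Pdk4, a pyruvate dehydrogenase kinase gene induced by fasting, stood at -0.86 ± 0.31 (0.152) and Igfbp1 at -0.27 ± 0.83 (0.903). Insig1, an SREBP target that holds SREBP in the endoplasmic reticulum, was lower (-1.01 ± 0.25, adjusted p = 0.0463). The part of clock phase or feeding in these differences was not tested.

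Whether genes moved together was asked in 6 pairs over the 16 livers, after the genotype mean of each gene was subtracted, with 100000 two-sided permutations within genotype and Benjamini-Hochberg adjustment over the 6. All pairs but Thrsp with Fasn join a regulator to a known target. Srebf1 and Fasn had a Pearson r of 0.91 (permutation p = 3e-05, adjusted 0.00018) and a Spearman rho of 0.95 (permutation p = 1e-05, the smallest they can give, adjusted 6e-05). Without the 2 livers farthest from the median of Srebf1, Ncoa5+/-Tip30+/- 4 and Ncoa5+/- 4, r was 0.86. Pearson r was 0.94 in the 7 livers of higher tags and 0.81 in the 9 of lower tags (exact permutation p = 0.000595 and 0.00309, adjusted over 12 relations 0.00238 and 0.00926). Thrsp and Fasn had r = 0.91 (permutation p = 0.00031, adjusted 0.00062) and rho = 0.92 (permutation p = 0.00021, adjusted 0.00063), with r = 0.81 without the same livers. For this pair Pearson r was 0.97 in the 7 livers of higher tags and 0.78 in the 9 of lower tags (exact permutation p = 0.000397 and 0.0136, adjusted over 12 relations 0.00238 and 0.0272). Srebf1 and Pnpla3, a triglyceride lipase homologue switched on by SREBP-1c, had r = 0.89 (permutation p = 0.00022, adjusted 0.00062) and rho = 0.83 (permutation p = 0.00078, adjusted 0.00156), with r = 0.82 without them. Here Pearson r was 0.98 in the 7 livers of higher tags and 0.74 in the 9 of lower tags (exact permutation p = 0.000198 and 0.0125, adjusted over 12 relations 0.00238 and 0.0272). So livers with more Srebf1 than their genotype mean also had more Fasn and Pnpla3 in each range of tags, although in the lower tags the Spearman rho of Srebf1 with Pnpla3 was 0.47 (exact permutation p = 0.213). The tests within tags, here and below, used genotype means over all 16 livers and permuted livers freely across genotypes. Their values therefore still hold each genotype's difference between tags, and their p-values are approximate.

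Pparg and its droplet target Cidec had r = 0.67 (permutation p = 0.013, adjusted 0.0195) and rho = 0.73 (permutation p = 0.00957, adjusted 0.0144). Without Ncoa5+/- 2 and wild type 3 r was 0.70, with a permutation p of 0.052 over the 14 livers left. For it Pearson r was 0.81 in the 7 livers of higher tags and 0.60 in the 9 of lower tags (exact permutation p = 0.0298 and 0.0866, adjusted over 12 relations 0.051 and 0.13). Nr1h3 and Srebf1 had r = 0.58 (permutation p = 0.0533, adjusted 0.0639) and rho = 0.54 (permutation p = 0.0643, adjusted 0.0772), which did not pass, and r was 0.41 without Ncoa5+/- 2 and Ncoa5+/- 4. Within tags Pearson r was 0.26 in the 7 livers of higher tags and 0.46 in the 9 of lower tags (exact permutation p = 0.589 and 0.223, adjusted over 12 relations 0.706 and 0.297). Mlxipl and the liver pyruvate kinase gene Pklr, a ChREBP target, had r = 0.03 (permutation p = 0.937, adjusted 0.937) and rho = -0.02 (permutation p = 0.959, adjusted 0.959), and r = -0.08 without Ncoa5+/- 2 and wild type 3. For this pair Pearson r was -0.16 in the 7 livers of higher tags and 0.15 in the 9 of lower tags (exact permutation p = 0.746 and 0.695, adjusted over 12 relations 0.746 and 0.746). The level of a transcript is not the activity of its protein, and both SREBP-1c and ChREBP are regulated after translation.

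**Figure D4:**
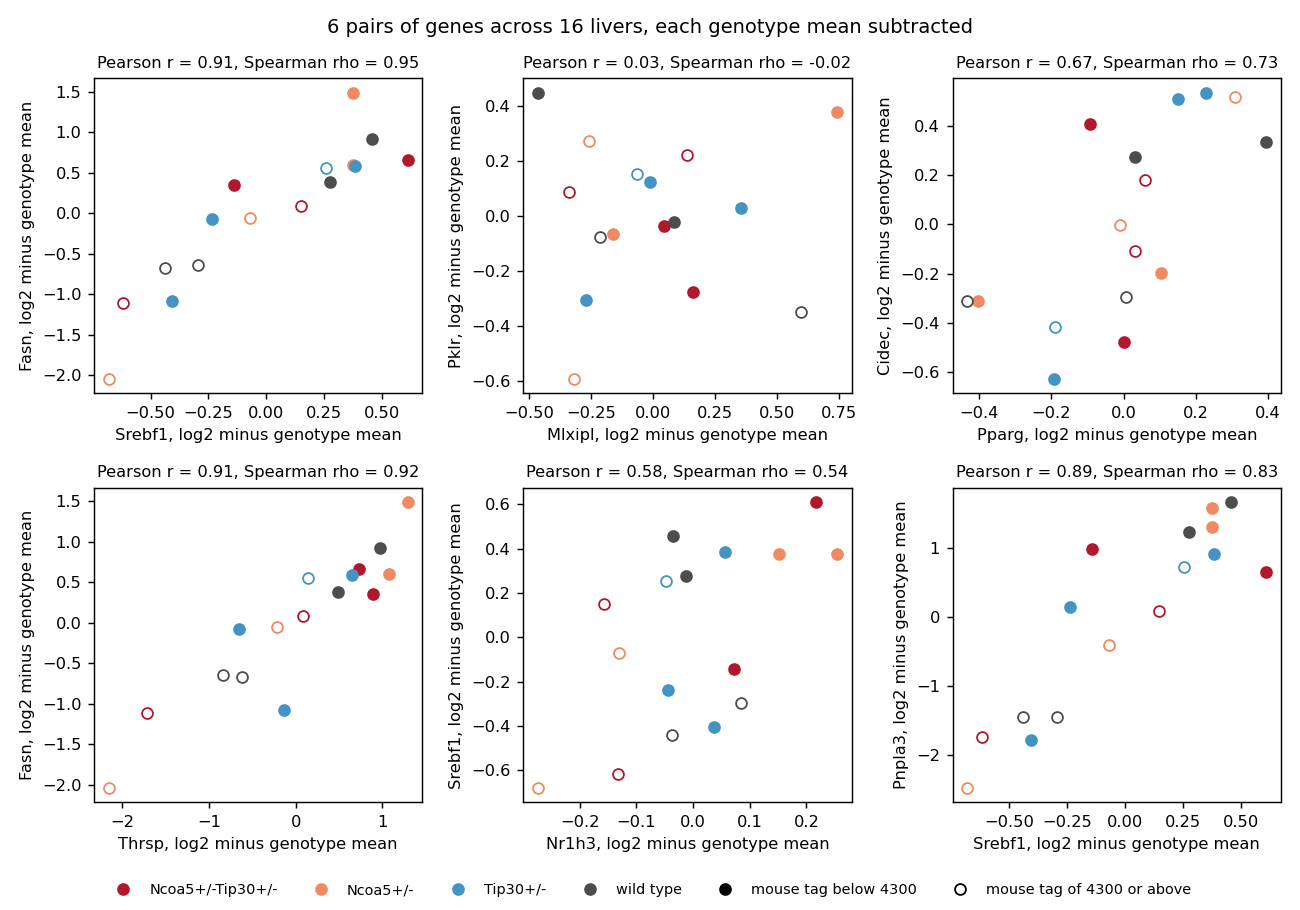
Log2 level of 6 pairs of genes in the 16 livers after subtracting each genotype mean (both axes), coloured by genotype, with open symbols for mouse tags of 4300 or above. Fasn rises with Srebf1 (r = 0.91) and with Thrsp (0.91), Pnpla3 with Srebf1 (0.89), and for Pklr with Mlxipl r is 0.03.

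The promoters of 3 of these co-varying genes, Fasn, Thrsp and Pnpla3, and that of Khk, whose Ncoa5+/-Tip30+/- and wild-type livers did not overlap, are shown from RefSeq, from 250 bases before to 50 bases after the start, 5′ to 3′ on the gene's strand. Capitals mark matches on either strand to CCAAT, the box bound by NF-Y, a factor that acts with SREBP, to GGGCGG, bound by Sp1, and to CACGTG, the E-box that USF and ChREBP can bind.
Fasn (GRCm38.p6 chr11:120824498-120824797, minus strand): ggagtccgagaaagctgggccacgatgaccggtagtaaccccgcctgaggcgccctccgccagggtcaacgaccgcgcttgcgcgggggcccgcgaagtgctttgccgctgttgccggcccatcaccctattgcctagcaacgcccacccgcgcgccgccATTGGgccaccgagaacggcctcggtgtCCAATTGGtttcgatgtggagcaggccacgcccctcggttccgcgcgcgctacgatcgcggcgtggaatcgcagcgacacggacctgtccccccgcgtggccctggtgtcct
Thrsp (GRCm38.p6 chr7:97417501-97417800, minus strand): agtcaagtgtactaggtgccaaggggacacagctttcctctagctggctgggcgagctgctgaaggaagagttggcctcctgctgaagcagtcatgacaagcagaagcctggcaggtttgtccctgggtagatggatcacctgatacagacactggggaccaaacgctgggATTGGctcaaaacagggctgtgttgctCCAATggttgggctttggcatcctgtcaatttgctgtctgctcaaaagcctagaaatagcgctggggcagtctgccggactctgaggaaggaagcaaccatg
Pnpla3 (GRCm38.p6 chr15:84167566-84167865, plus strand): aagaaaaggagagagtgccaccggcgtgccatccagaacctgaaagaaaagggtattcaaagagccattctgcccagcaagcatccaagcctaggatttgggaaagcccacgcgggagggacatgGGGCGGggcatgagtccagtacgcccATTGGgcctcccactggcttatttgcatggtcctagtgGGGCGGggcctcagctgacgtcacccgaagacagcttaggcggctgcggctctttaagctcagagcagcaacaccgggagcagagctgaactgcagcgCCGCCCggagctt
Khk (GRCm38.p6 chr5:30921309-30921608, plus strand): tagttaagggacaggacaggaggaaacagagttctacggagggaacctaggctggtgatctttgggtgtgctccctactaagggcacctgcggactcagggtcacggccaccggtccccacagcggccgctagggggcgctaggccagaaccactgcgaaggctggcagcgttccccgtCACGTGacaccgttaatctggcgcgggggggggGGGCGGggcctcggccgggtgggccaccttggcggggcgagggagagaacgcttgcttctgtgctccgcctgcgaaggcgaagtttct
Fasn has 3 matches to CCAAT, at bases 161, 189 and 192 of the window, where the last 2 overlap on opposite strands, and Thrsp has 2, at bases 172 and 199. Pnpla3 has 1 match to CCAAT, at base 152, and 3 to GGGCGG, at bases 126, 190 and 288. Khk has 1 E-box, at bases 180 to 185, and 1 match to GGGCGG, at base 213, and no CCAAT in this window. Of the 38 genes 34 have a promoter entry, and Scd1, Dgat1, Dgat2 and Fads1 are named only. CCAAT was in 42.9% of 49 promoter entries of the members (21 entries) and 37.4% of 32851 mouse promoter entries, and GGGCGG in 55.1% of 49 promoter entries of the members (27 entries) and 35.7% of 32851 mouse promoter entries. The E-box was in 14.3% of 49 promoter entries of the members (7 entries) and 7.15% of 32851 mouse promoter entries. TCACNCCAC, a form of the sterol response element, was in 1 member entry, of Mlxipl, or 2.04%, and in 1.24% of all. The carbohydrate response element, searched as 2 E-boxes set 5 bases apart, was found in 0 of the 32851. That search required 2 exact E-boxes and misses forms with mismatched bases, so it does not show whether a promoter lacks such an element. These matches describe the letters of a short window and name no bound site.

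In triglyceride synthesis, Dgat2 (ENSMUSG00000030747, chr7:99153658-99182719, minus strand), the acyltransferase that adds the last fatty acid to diacylglycerol, was the 1 member to pass. It had 26927, 21404, 23164 and 22944 normalized counts in Ncoa5+/-Tip30+/- livers, 21569, 22761, 24796 and 19449 in Ncoa5+/-, 35608, 35581, 33263 and 32116 in Tip30+/- and 22111, 20966, 29990.3 and 27093 in wild-type livers. The 4 Tip30+/- livers were the 4 highest of the 16, and the other 3 genotypes overlapped. Dgat2 fell to 23609.8 ± 2346 in Ncoa5+/-Tip30+/- livers, against 34142 ± 1741 in Tip30+/- livers (SD, n = 4 each), a fold of 0.69 (log2 -0.54 ± 0.12, 95% confidence interval -0.80 to -0.28; adjusted p = 0.0293 by limma and p = 0.0286 by a two-sided exact permutation test). The call was lost without any one of 6 of the 8 livers compared, with an adjusted p of 0.11 without Ncoa5+/-Tip30+/- 2, 0.0665 without Ncoa5+/-Tip30+/- 3 and 0.063 to 0.0779 without one of the 4 Tip30+/- livers. It held with DESeq2 and edgeR and without the 4 livers low in Zhx2 (adjusted p = 0.00206, 0.0402 and 0.0174). In the same comparison 6 of 7 hepatocyte markers lay below 0 with a median of -0.37 on the log2 scale, 2 of them lower at an unadjusted p below 0.05, 0 passed, and their sums did not overlap, as given above. Their part in the Dgat2 result was not tested. The difference was -0.54 within the lower and -0.48 within the higher tags.

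Over both Tip30 genotypes, Dgat2 fell by 0.35 ± 0.09 on the log2 scale in Ncoa5-deleted livers (n = 8 mice against 8, 95% confidence interval -0.54 to -0.17, adjusted p = 0.0235 by limma). Without Ncoa5+/-Tip30+/- 2 the adjusted p was 0.0518, and without wild type 4 it was 0.0506. There 5 of 7 hepatocyte markers lay below 0 with a median of -0.25 on the log2 scale. In Ncoa5+/-Tip30+/- against wild-type livers Dgat2 differed by -0.07 (p = 0.657 by a two-sided exact permutation test). In Ncoa5+/- against wild-type livers Dgat2 differed by -0.17 ± 0.12 (adjusted p = 0.712). The interaction, -0.37 ± 0.17, had an unadjusted p of 0.0497 and an adjusted p of 0.95 by limma. In Tip30+/- against wild-type livers, which share the Tip30+/- mice with the comparison above, Dgat2 stood 1.38-fold higher without overlap (log2 0.46 ± 0.12, adjusted p = 0.422 by limma and p = 0.0286 by a two-sided exact permutation test), 1 of 38 members without overlap or 2.63%, against 4.44% of all genes. Within the lower tags, where both wild-type livers are low in Zhx2, that difference was 0.69, and within the higher tags, where Tip30+/- has 1 liver, 0.17. Without the 4 livers low in Zhx2, which leaves 2 wild-type livers, both of higher tags, it was 0.26 (adjusted p = 0.961 by limma). Dgat1, which catalyses the same step, differed by at most 0.10 on the log2 scale in any of the 5 pairwise comparisons. Mogat1, which makes diacylglycerol from monoacylglycerol, had 81, 82.8, 34.7 and 53.6 normalized counts in Ncoa5+/-Tip30+/- livers, against 19.1, 36.7, 19.8 and 29.2 in Ncoa5+/- livers (log2 1.20 ± 0.38, adjusted p = 0.475). The glycerol-phosphate acyltransferase gene Gpam, the acyltransferase gene Agpat2 and the phosphatidate phosphatase genes Lpin1 and Lpin2 differed from wild type by -0.12, -0.22, 0.44 and 0.07 in Ncoa5+/-Tip30+/- livers.

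Among droplet proteins, Plin5 (ENSMUSG00000011305, chr17:56111601-56117596, minus strand), which coats droplets next to mitochondria, had 1099, 961, 666 and 1078 normalized counts in Ncoa5+/-Tip30+/- livers, 1203, 1062, 922 and 899 in Ncoa5+/-, 1176, 1539, 999 and 1087 in Tip30+/- and 1272, 1313, 1518 and 1199.8 in wild-type livers. Every Ncoa5+/-Tip30+/- liver lay below every wild-type liver, with means of 951 ± 199.7 in Ncoa5+/-Tip30+/- and 1326 ± 136 in wild-type livers (SD, n = 4 each), a fold of 0.707 (log2 -0.50 ± 0.16, 95% confidence interval -0.84 to -0.16; adjusted p = 0.0901 by limma and p = 0.0286 by a two-sided exact permutation test). For Ncoa5-deleted against other livers it was -0.36 ± 0.11 (adjusted p = 0.0593), with an adjusted p of 0.0427 by DESeq2 and 0.0483 with the mouse tag as a covariate. Within the lower tags the difference from wild type was -0.33 and within the higher tags -0.67. Plin4, at 69.6 to 168 normalized counts in Ncoa5+/-Tip30+/- and 31.8 to 78.9 in wild-type livers, differed the other way (log2 1.01 ± 0.35, adjusted p = 0.112). Cideb, which helps load lipoproteins, was lower in all Ncoa5+/-Tip30+/- than in all Tip30+/- livers (341 to 418 in Ncoa5+/-Tip30+/- against 424 to 622 in Tip30+/-, log2 -0.41 ± 0.15, adjusted p = 0.131), and 1136 bases of its exons overlap Nop9 on the opposite strand. Cidec differed from wild type by 0.40 ± 0.28. In Ncoa5+/-Tip30+/- against wild-type livers 5 of 7 hepatocyte markers lay below 0 with a median of -0.27 on the log2 scale, and their part in the Plin5 difference was not tested.

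Of the lipolysis genes, Pnpla3 (ENSMUSG00000041653, chr15:84167837-84187236, plus strand), which codes for a droplet protein linked in humans to fatty liver, is given in full, like Fasn above, after its values were seen, since it had the largest log2 difference from wild type among the members. It had 1961, 2474, 1325 and 371 normalized counts in Ncoa5+/-Tip30+/- livers, 1248, 1503, 378 and 88.6 in Ncoa5+/-, 235, 60.3, 399.6 and 348 in Tip30+/- and 421, 312, 47.7 and 47.3 in wild-type livers. In 3 of 4 Ncoa5+/-Tip30+/- livers it lay above every wild-type liver, and the fourth lay among them. The fold difference was 9.37 (log2 3.23 ± 1.06, 95% confidence interval 0.92 to 5.54; adjusted p = 0.109 by limma and p = 0.0571 by a two-sided exact permutation test). Against Tip30+/- it was 5.87 (log2 2.55 ± 1.06, adjusted p = 0.176). For Ncoa5-deleted against other livers the log2 difference was 2.24 ± 0.75 (adjusted p = 0.0861), and it passed with DESeq2 (0.00738), with the mouse tag as a covariate (0.0232) and without the 4 livers low in Zhx2 (0.0396), but not with edgeR (0.063). Within tags, the difference of Ncoa5+/-Tip30+/- from wild type was 2.60 in the lower and 3.86 in the higher range, and that of Ncoa5+/- from wild type was 1.91 and 1.93. Without the 4 livers low in Zhx2, which leaves 2 wild-type livers, the log2 difference of Ncoa5+/-Tip30+/- from wild type was 4.68 (adjusted p = 0.0805) for Pnpla3, 0.53 (adjusted p = 0.152) for Khk, 1.54 (adjusted p = 0.0805) for G6pdx, -0.53 (adjusted p = 0.225) for Plin5 and 0.45 (adjusted p = 0.441) for Mlxipl, by limma. The wild-type livers left there both have higher tags. Srebf1 itself had genotype means within 0.22 of wild type. Pnpla2, adipose triglyceride lipase, Lipe, hormone-sensitive lipase, and Mgll, monoglyceride lipase, differed from wild type by 0.03, -0.20 and 0.04 in Ncoa5+/-Tip30+/- livers.

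Uptake and export genes lay lower in Ncoa5+/-Tip30+/- than in Tip30+/- livers in all 3 cases, and 0 of 3 passed. The hepatocyte markers ran, in the same comparison, from -0.63 to 0.11 on the log2 scale with 6 of 7 below 0, and their part in these values was not tested. Cd36, the fatty acid transporter, had 2554, 1738, 981 and 1772 normalized counts in Ncoa5+/-Tip30+/- livers, 2876, 2327, 3351 and 2799 in Tip30+/- and 1099, 1370.3, 2699 and 1628 in wild-type livers, a log2 difference of -0.76 ± 0.31 against Tip30+/- (adjusted p = 0.163), while Tip30+/- against wild type gave 0.81 ± 0.31 (adjusted p = 0.603). Apob, the protein of very low density lipoprotein, differed by -0.49 ± 0.20 between Ncoa5+/-Tip30+/- and Tip30+/- livers (adjusted p = 0.157) and passed with the mouse tag as a covariate (adjusted p = 0.0455). Mttp, which lipidates Apob, differed by -0.17 ± 0.10 without overlap between the groups (unadjusted p = 0.129).

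Of 59 further genes of sugar use, lipogenesis and lipid transport, 58 were tested. In Ncoa5+/-Tip30+/- against wild-type livers 1 rose and 0 fell, 1.72% against 2.67% of all genes. It was Tkfc, triose kinase, which acts after ketohexokinase in fructose breakdown, at 22077, 19883, 21983 and 15509.9 normalized counts in Ncoa5+/-Tip30+/- and 15478, 14144, 10421 and 10910.2 in wild-type livers (log2 0.65 ± 0.17, adjusted p = 0.0489). That value lies close to the threshold, and whether the Tkfc call held under other settings is not given here. Calls over all genes in this comparison ran from 88 to 846 with 1 liver left out. Over both Tip30 genotypes 1 of 58 rose and 3 fell in Ncoa5-deleted livers, 6.9% against 7.89% of all genes, so their share was not above that of all genes. Bscl2, the droplet-biogenesis gene of seipin, rose (log2 0.40 ± 0.09, adjusted p = 0.0178), and among those that fell were Acsl1, a long-chain acyl-CoA synthetase (log2 -0.45 ± 0.12, adjusted p = 0.0285), and Lipc, hepatic lipase (-0.40 ± 0.11, 0.0315). In the other 6 comparisons 0 of 58 passed by limma. Genes among the 2 of smallest unadjusted p in each of these are given as values. In Tip30+/- against wild-type livers they were Tkfc (log2 0.41 ± 0.17) and Pklr, which averaged 12026 ± 1654 normalized counts in Tip30+/- and 6622 ± 1597 in wild-type livers (SD, n = 4 each, log2 0.88 ± 0.20, unadjusted p = 0.000381, adjusted p = 0.243 by limma). For Tip30-deleted against other livers Pklr differed by 0.68 ± 0.14 (adjusted p = 0.0633) and Fabp1, a fatty acid binding protein, by 0.35 ± 0.13 (0.283). Between Ncoa5+/-Tip30+/- and Tip30+/- livers Bscl2 differed by 0.48 ± 0.13 (adjusted p = 0.0572) and Lipc by -0.51 ± 0.15 (0.0683). Between Ncoa5+/-Tip30+/- and Ncoa5+/- livers Gckr differed by 0.32 ± 0.13 and Pklr by 0.48 ± 0.20, and between Ncoa5+/- and wild-type livers Tkfc by 0.47 ± 0.17. The interactions of Hsd17b12 and Agpat3 were -0.32 ± 0.14 and -0.30 ± 0.16. Among the 12 clock genes and 9 fasting genes 0 passed in any comparison of genotypes, and Per1, named after its values were seen, differed by 0.92 ± 0.26 for Tip30-deleted against other livers (adjusted p = 0.206). The macrophage markers summed to 5141 to 10116 normalized counts in Ncoa5+/-Tip30+/-, 6543 to 14143 in Ncoa5+/-, 6123 to 8100.1 in Tip30+/- and 3056 to 7805 in wild-type livers, and their part in the member values was not tested.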

How the data were processed

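Each deposited value is a signal per gene and library, a read count that the authors divided by a size factor. The deposited table is labelled as holding DESeq2 normalized counts. Reads were handled with Trimmomatic 0.36, STAR 2.6.0c and DESeq2 1.28.1 on GRCm38, per the submitters' processing notes; the sources used here name neither the counting program nor the annotation. In every library 100% of the deposited values were whole multiples of 1 step within a tolerance of 1e-04, so whole reads were recovered, 24740706 to 37939978 per library.

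The 15263 of 30199 genes whose mean normalized count reached 10 were tested with limma 3.58.1 (R 4.3.3) on log2(value + 1), 4 genotype means over all 16 libraries, with trend and robust settings. Fold changes are on that scale. An adjusted p is Benjamini-Hochberg over the 15263 genes in 1 comparison, and a gene passed below 0.05. The alternatives were DESeq2 1.42.0 and edgeR 4.0.16 (quasi-likelihood) on the recovered reads, pseudocounts of 0.5 and 5, other filters, TMM and upper-quartile scaling, the compared groups alone, the tag or Zhx2 as a covariate, and libraries left out. The tag comparison and the values within tags were added after the data were seen. The scripts were tested on simulated data. Exact permutation tests between genotypes used scipy 1.17.1, and the permutations for pairs of genes were computed with numpy 2.4.6.

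The 38 members, the role groups and the other lists were chosen with earlier results of these data known. Members were given in full where they passed, or did not overlap wild type at an unadjusted p below 0.05, and all 4 regulators were given. Of the further pathway genes, 1 is counted but not reported here. Lengths and positions are from GENCODE on GRCm38. Nothing in the labels says that mice of 1 genotype came from separate litters, and p-values measure the spread between these mice.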

Additional observations from a re-analysis of the deposited data

Results flagged for a closer look

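In each genotype the 4 livers were searched for a member gene with 1 liver far from the other 3, by Dixon's test at the 95% level. Of 152 groups 6 held such a liver, and chance gives about 5% of groups. Mlxipl stood at 8509 normalized counts in Ncoa5+/- 2, against 4084 to 4555 in the other 3 livers of that genotype. Khk stood at 17579 normalized counts in wild type 3, against 14385 to 14484 in the other 3 livers of that genotype. Elovl5 stood at 20308 normalized counts in wild type 4, against 18026 to 18319 in the other 3 livers of that genotype. Agpat2 stood at 7439 normalized counts in Tip30+/- 4, against 6326 to 6436 in the other 3 livers of that genotype. Lpin2 stood at 6864 normalized counts in Ncoa5+/-Tip30+/- 2, against 4885 to 5013 in the other 3 livers of that genotype. Cideb stood at 543 normalized counts in Ncoa5+/- 4, against 389.7 to 406 in the other 3 livers of that genotype.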

How the results depend on the processing

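No paired analysis was possible because the labels number no replicates. For Ncoa5+/-Tip30+/- against wild-type livers the count of members that passed was 0, and it was 3 with DESeq2, 1 with upper-quartile scaling, 1 with the tag as a covariate and 0 to 2 with 1 liver left out. Between Ncoa5+/-Tip30+/- and Tip30+/- livers it was 1, and it was 2 with the compared groups alone, 2 with the tag as a covariate and 0 to 1 with 1 liver left out. For Ncoa5-deleted against other livers it was 1, and it was 3 with DESeq2, 3 with the tag as a covariate, 2 without the 4 livers low in Zhx2 and 0 to 3 with 1 liver left out. For Tip30-deleted against other livers it was 0, and 2 with DESeq2. Between tags it was 0, and it was 1 with a pseudocount of 5 and 0 to 12 with 1 liver left out. In the other 4 comparisons it was 0 under every setting run. The correlation of Mlxipl with Pklr changed sign to -0.037 without the 4 livers low in Zhx2, -0.084 without the 2 farthest livers and -0.16 in the higher tags. That of Pparg with Cidec no longer passed without the 4 livers low in Zhx2 (0.59), without the 2 farthest (0.70), in the lower tags (0.60) and in the higher tags (0.81). That of Nr1h3 with Srebf1 passed with no genotype mean subtracted (0.60). Fewer livers entered where livers were left out or split by tag, and in the rest the cause was not tested. Over all genes, calls for Ncoa5+/-Tip30+/- against wild type numbered 407 (88 to 846 with 1 liver left out, 107 to 1044 under the other settings), against Tip30+/- 469 (107 to 764 with 1 liver left out, 384 to 1344 under the other settings) and for Ncoa5-deleted against other livers 1205 (610 to 1602 with 1 liver left out, 602 to 1937 under the other settings). They numbered 20 (15 to 114 with 1 liver left out, 5 to 246 under the other settings) for Tip30-deleted livers, 85 (45 to 90 with 1 liver left out, 29 to 257 under the other settings) for Ncoa5+/- and 2 (1 to 8 with 1 liver left out, 2 to 43 under the other settings) for Tip30+/- against wild type, 3 (1 to 10 with 1 liver left out, 1 to 32 under the other settings) between Ncoa5+/-Tip30+/- and Ncoa5+/-, and 405 (136 to 1007 with 1 liver left out, 15 to 419 under the other settings) between tags. With 1 liver left out, the number of members at an unadjusted p below 0.05 ran from 5 to 8 for Ncoa5+/-Tip30+/- against wild type, 2 to 5 for Tip30+/- against wild type, 3 to 5 for Ncoa5+/-Tip30+/- against Ncoa5+/-, 5 to 8 for Tip30-deleted livers, 2 to 5 for the interaction and 10 to 19 between tags. The share over all genes is not given for these, so they show only how far the member counts moved. On the recovered reads DESeq2 called 1044 genes and edgeR 367 for Ncoa5+/-Tip30+/- against wild type. With 4 mice a genotype, the spread between mice limits what can be detected in Fasn, Thrsp, Elovl6 and Pnpla3, and the least abundant members, Plin4 and Mogat1, rest on few reads.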

Other observations

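Between livers of higher and lower mouse tags, 4 of the 58 further pathway genes and 5 of the 12 clock genes passed by limma. Insig2, whose protein like that of Insig1 holds SREBP in the endoplasmic reticulum, was higher in the higher tags (log2 0.45 ± 0.11, adjusted p = 0.035), and so was Scap, the SREBP escort (0.40 ± 0.09, 0.0236), while the acyl-CoA synthetase gene Acsl3 was lower (-0.59 ± 0.13, 0.0254) along with Insig1. The clock genes Per2 (-0.69 ± 0.16, 0.0349), Tef (-0.33 ± 0.08, 0.0455) and Ciart (-1.60 ± 0.37, 0.0422) were lower in the higher tags. The 8 endothelial markers summed to 4934 to 6854 normalized counts in Ncoa5+/-Tip30+/- livers, 4375 to 6682 in Ncoa5+/-, 4644 to 5620.4 in Tip30+/- and 3835 to 7372 in wild type, and the ranges overlapped.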
